A study of Mus musculus with 48 samples.

Results

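Nuclear receptors are transcription factors, most of them switched by small lipophilic ligands, and 38 of their genes were followed through 3 mouse tissues. They were taken from a table of 56748 genes by matching the Ensembl identifier of each gene to a fixed list of symbols, and all 38 listed symbols were found. RNA was sequenced from 3 snap-frozen tissues, namely liver, brown fat (brown adipose tissue, BAT) and the white fat beside the epididymis (eWAT). The donors were male mice that differed at the hepatocyte angiotensinogen gene: hepAGT+/+ littermates, here wild type (WT), and hepAGT-/- mice, here knockout (KO). Every mouse ate a Western diet, in which milk fat made up 21% and cholesterol 0.2%, over 12 weeks, in a room at 20 to 22 °C (room temperature, RT) or at 30 °C, which is thermoneutral (TN) for a mouse, so that it needs no extra heat production. No group on ordinary chow is part of the comparisons. Tissue, genotype and housing gave 12 groups of 4 libraries, 48 libraries in all, described in the labels as biological replicates. The labels used here give neither the promoter or Cre line behind the deletion nor the age of the mice.

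As a class, nuclear receptors bind DNA as monomers, homodimers or heterodimers with a retinoid X receptor, and recruit corepressors or coactivators according to whether a ligand is bound. In liver they govern bile acid, drug and fatty acid metabolism. PPAR-gamma drives fat cell formation, and in brown fat the thyroid hormone receptors, PPAR-alpha and the estrogen-related receptors are known for their part in mitochondrial and heat-producing gene programmes. The NR4A receptors are immediate-early genes, switched on within minutes to hours by cyclic AMP and other signals, and act without a known classical ligand.

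The upstream sequences of 3 receptors are shown because Nr5a2, Nr4a1 and Nr4a3 had the highest log2 differences between housings in WT BAT. This ranking is among the receptors that passed the test there, and BAT was the tissue where most receptors differed. The 3 receptors were chosen after those values had been seen. Each is the stretch of 250 bases before a RefSeq start site in GRCm38.p6, read 5′ to 3′ on the gene's own strand. Nr5a2 has a pair of annotated starts, both on the minus strand, at chr1:136960449-136960698 for the first window and chr1:136953631-136953880 for the second. Nr4a1 lies on the plus strand, with its window at chr15:101266596-101266845, and Nr4a3 on the plus strand, at chr4:48045055-48045304. Capitals mark AGGTCA, the core site that many nuclear receptors bind, and TGACG, the core of the cyclic AMP response element, on either strand, so that CGTCA is the same core read from the other strand.
Nr5a2, first start: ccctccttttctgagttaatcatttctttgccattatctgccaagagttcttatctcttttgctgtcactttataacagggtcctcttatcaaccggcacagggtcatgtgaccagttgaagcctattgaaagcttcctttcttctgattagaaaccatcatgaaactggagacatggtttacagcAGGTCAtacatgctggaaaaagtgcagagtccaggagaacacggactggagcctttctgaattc
Nr5a2, second start: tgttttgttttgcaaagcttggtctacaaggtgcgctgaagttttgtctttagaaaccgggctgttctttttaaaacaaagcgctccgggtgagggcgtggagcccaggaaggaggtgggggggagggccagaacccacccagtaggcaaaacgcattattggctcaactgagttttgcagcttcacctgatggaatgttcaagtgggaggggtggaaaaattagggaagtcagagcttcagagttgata
Nr4a1: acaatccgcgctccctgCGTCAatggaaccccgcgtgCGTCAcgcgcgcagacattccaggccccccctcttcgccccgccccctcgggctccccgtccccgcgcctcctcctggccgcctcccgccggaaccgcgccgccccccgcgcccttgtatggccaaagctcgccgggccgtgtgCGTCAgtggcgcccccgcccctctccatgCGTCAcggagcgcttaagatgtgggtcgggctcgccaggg
Nr4a3: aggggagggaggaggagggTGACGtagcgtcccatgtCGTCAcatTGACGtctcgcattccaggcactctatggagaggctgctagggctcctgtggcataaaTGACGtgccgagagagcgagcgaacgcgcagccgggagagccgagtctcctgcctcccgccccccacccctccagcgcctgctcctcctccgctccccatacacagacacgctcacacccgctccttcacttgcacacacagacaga
The Nr4a1 and Nr4a3 windows held 4 TGACG cores each, and neither Nr5a2 window held one. The first Nr5a2 window held 1 AGGTCA core.

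RefSeq windows were matched for 35 of the 38 receptors and left out Thra, Hnf4g and Nr3c1. TGACG was searched on both strands and added to the search after the sequences had been seen. It was present in 17.8% of all 32851 windows of this length or, counted per gene as the receptors are, in 19.8% of genes. Windows of 11 receptors held it: Esrrb, Nr2c1, Nr2c2, Nr4a1, Nr4a2, Nr4a3, Nr6a1, Ppara, Rara, Rxrb and Thrb. Windows with 4 or more copies were few, 45 of 32851 or 0.137%, and Nr4a1, Nr4a2 and Nr4a3 each had 4. The full palindrome TGACGTCA, which contains TGACG, was in 1.55% of windows (1.77% of genes) and in that of no receptor. AGGTCA was in 14.0% of windows (15.8% of genes) and in those of 9 receptors, namely Nr1d2, Nr1h4, Nr5a2, Nr6a1, Pparg, Rarg, Rxra, Rxrg and Thrb. Its extended form AAAGGTCA, the NR4A monomer site, was in 1.34% of windows (1.55% of genes) and in those of Rxra and Rxrg. CACGTG, the E-box bound by clock factors, was in 6.02% of windows (6.86% of genes) and in those of Nr1i3, Rara and Thrb. These matches describe letters in 1 window per start and not binding.

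Libraries held a median of 29.9 M (megacounts) in liver (23.7 to 36.5), 30.7 M in BAT (25.3 to 39.4) and 34.5 M in eWAT (28.7 to 43.7). At that depth 3 counts correspond to between 0.0687 and 0.127 CPM (counts of a gene per megacount of its library), the level below which a receptor is not told apart from 0. Angiotensinogen itself, Agt, was 368 ± 75.5 CPM (SD, n = 4) in WT RT liver and 167 ± 26.8 in KO RT liver, 409 ± 86.5 in WT TN liver and 167 ± 33.8 in KO TN liver. The genotypes did not overlap in either housing, and Agt RNA remained measurable in every KO liver. In BAT, summed skeletal muscle markers ran from 57.2 to 6303 CPM, with 5 libraries above 1000 CPM (KO RT replicates 14 and 19, KO TN replicate 2, WT TN replicates 24 and 6). WT RT replicate 12 and WT TN replicate 24 stood apart from their groups in endothelial markers. In eWAT, WT RT replicate 18 held 898 CPM of epididymis markers against at most 12.4 CPM in any other library. Results that change without these libraries are given with both values.

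The receptors made up different sets in the 3 tissues. Averaged over the 16 libraries of a tissue, 19 receptors were highest in liver, 13 in BAT and 6 in eWAT. Levels of at least 10 CPM were reached by 27 receptors in liver, 24 in BAT and 20 in eWAT, and at least 100 CPM by 9, 5 and 3. Divided by exon length, the median receptor stood at 5.52 CPM per kb in liver, 2.41 in BAT and 2.06 in eWAT. Liver was led on this per-length scale by Nr1i3 at 139.9 CPM per kb, Hnf4a at 101.9 and Rxra at 78.7. BAT was led by Pparg at 85.4 CPM per kb, Ppara at 35.5 and Esrra at 28.8, and eWAT by Pparg at 67.6, Rxra at 32.4 and Nr1h3 at 31.8.

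**Figure D1:**
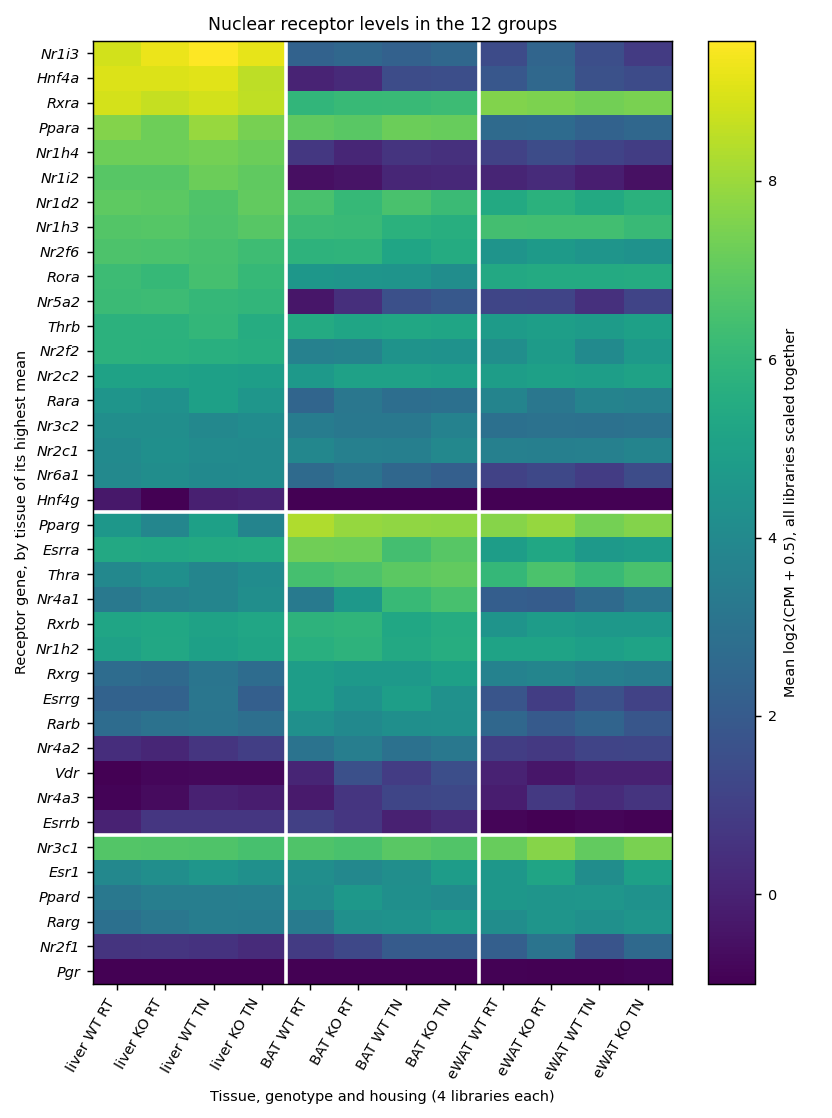
Level of each of the 38 receptors (rows, ordered by the tissue of the highest mean) in the 12 groups (columns, 4 libraries each), as mean log2(CPM + 0.5) with all libraries scaled together. The block of 19 receptors highest in liver comes first, then 13 highest in BAT and 6 highest in eWAT.

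Tissues were compared with edgeR's quasi-likelihood test over all 48 libraries, with Benjamini-Hochberg adjustment over all 21910 genes tested, and a gene with an adjusted p under 0.05 is called different here and below. Of the 37 receptors tested, all but Pgr, 32 differed between liver and BAT (17 higher in liver and 15 in BAT), 34 between liver and eWAT (23 and 11) and 30 between BAT and eWAT (19 higher in BAT and 11 in eWAT). Most genes differ between these tissues: 68.6%, 73.8% and 60.3% of all genes tested were called in the same comparisons, so the receptors' counts are read against that background. Split by direction, the background was 31.6% higher in liver and 37.0% in BAT, 35.5% higher in liver and 38.3% in eWAT, and 29.2% higher in BAT and 31.1% in eWAT. Nr2c2, an orphan receptor also known as testicular receptor, was called in none of the 3, with 31.4 CPM in eWAT, 30.6 in BAT and 32.8 in liver.

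The receptors for bile acids and foreign compounds were liver genes. The farnesoid X receptor Nr1h4, which senses bile acids, stood at 154 ± 21.1 CPM (SD, n = 16) in liver, against 1.10 CPM in BAT and 1.99 CPM in eWAT. The pregnane X receptor Nr1i2 and the constitutive androstane receptor Nr1i3, which induce drug-metabolising enzymes, reached 125 ± 20.8 and 618 ± 177 CPM in liver, against 0.598 and 5.17 CPM in BAT. Hnf4a, a master regulator of hepatocyte genes, was 492 ± 109 CPM in liver, and Nr5a2, the liver receptor homologue that controls bile acid synthesis genes, 69.6 ± 11.0 CPM. The log2 differences of liver over BAT were 7.96 for Hnf4a, 7.94 for Nr1i2, 7.16 for Nr1h4, 6.89 for Nr1i3 and 5.69 for Nr5a2. In the annotation used for gene lengths (GENCODE M21), 74.85% of the exon bases of Nr1i3 and 54.37% of those of Nr2f6 are also exons of a gene on the opposite strand. Whether the counting used strand is not given in the sources used here, so the levels of these genes, and of Nr2c2 (31.18%) and Rarb (38.37%), are less certain than those of the others.

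The PPARs, receptors for fatty acids, divided the tissues in another way. Ppara, which drives fatty acid oxidation, was 194 ± 51.1 CPM in liver and 136 ± 35.9 in BAT but 5.68 ± 2.56 in eWAT, a log2 difference of 4.59 between the fat depots. Pparg reached 252 ± 56.5 CPM in BAT, 199.7 ± 35.7 in eWAT and 21.2 ± 9.61 in liver, and its log2 difference between the fat depots was 0.33. That last call depended on the processing: its adjusted p was 0.0657 with no filter on low counts and 0.0617 without the 5 muscle-rich BAT libraries. Ppard differed less, with 22.2 CPM in eWAT, 19.4 in BAT and 10.6 in liver. Its difference between the fat depots (log2 -0.21, adjusted p = 0.0332) was lost without the 5 muscle-rich BAT libraries (0.0564), and without BAT KO RT replicate 19, BAT WT RT replicate 15 or 17, eWAT KO RT replicate 9 or 19 or eWAT WT TN replicate 7 (0.0515 to 0.0694).

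Of the estrogen-related receptors, orphan receptors that control mitochondrial genes, Esrra and Esrrg were highest in BAT. Esrra stood at 126 ± 32.7 CPM in BAT, 42.3 ± 8.04 in liver and 30.5 ± 5.94 in eWAT, and Esrrg at 25.2, 5.56 and 2.31 CPM. Esrrb averaged 1.09 CPM in BAT, 1.03 in liver and 0.0432 in eWAT, and its log2 difference between liver and BAT was -0.03 ± 0.52. The thyroid hormone receptor Thra was likewise higher in the fat depots, 109.8 ± 23.2 CPM in BAT and 81.2 ± 16.6 in eWAT against 16.3 ± 3.79 in liver, while Thrb was highest in liver at 54.9 CPM. Of their partners, the retinoid X receptors, Rxra was at its lowest in BAT, with 429.6 ± 79.8 CPM in liver, 177 ± 24.5 in eWAT and 69.95 ± 9.78 in BAT, where Rxrb (50.4 CPM) and Rxrg (28.3 CPM) were each at their highest. Per kb of exon the 3 stood close together in BAT, at 12.8, 12.7 and 12.3 CPM per kb, against 78.65, 9.28 and 2.83 in liver.

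Among the steroid receptors, the glucocorticoid receptor Nr3c1 was abundant everywhere, at 100.4 ± 14.3 CPM in liver, 104 ± 12.9 in BAT and 161 ± 30.9 in eWAT. Its liver and BAT levels did not pass the test (log2 difference -0.05, adjusted p = 0.487, edgeR quasi-likelihood test), and eWAT was above both. The estrogen receptor Esr1 was 27.6 CPM in eWAT, 20.1 in BAT and 19.8 in liver. The mineralocorticoid receptor Nr3c2 stood at 7.46 CPM in eWAT, 10.2 in BAT and 17.7 in liver. The progesterone receptor Pgr had no counts in any liver or BAT library and in 12 of 16 eWAT libraries. The vitamin D receptor Vdr was at 0 in 12 of 16 liver libraries and averaged 1.86 CPM in BAT. Hnf4g was at 0 in every fat library and in 7 of 16 liver libraries, among them all 4 KO RT livers, where 3 counts would have been at most 0.116 CPM.

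Hepatocyte markers were measured in every fat library, and whether liver RNA contributed to the receptor levels of fat was not tested. The summed hepatocyte markers, 8 genes led by albumin, ran from 11.3 to 3032 CPM in BAT and from 649.8 to 7378 CPM in eWAT, and none of the 8 was at 0 in any fat library. If a receptor came along with the hepatocyte markers in the ratio found in liver, a certain level would be carried into each fat library. Hnf4a in BAT ranged from 0 to 15.1 CPM and had a median of 0.832 times that carried level, and Nr1i2 one of 0.734 times. The other 3 receptors lay above it in most BAT libraries: Nr5a2 with a median of 6.68 times (15 of 16 libraries above), Nr1i3 with 3.11 times (14 of 16) and Nr1h4 with 2.00 times (12 of 16). The level of Nr1i3 is less certain, since 74.85% of its exon bases are shared with a gene on the opposite strand, as given above. In eWAT the medians were 0.382 times for Hnf4a, 0.768 for Nr1h4, 0.148 for Nr1i2 and 0.249 for Nr1i3, with no eWAT library above the carried level for the last pair. Nr5a2 in eWAT had a median of 1.35 times, with 10 of 16 libraries above. In BAT KO TN replicate 3, with 39.2 CPM of hepatocyte markers, Nr5a2 stood at 2.34 CPM where 0.0249 CPM would have been carried.

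**Figure D2:**
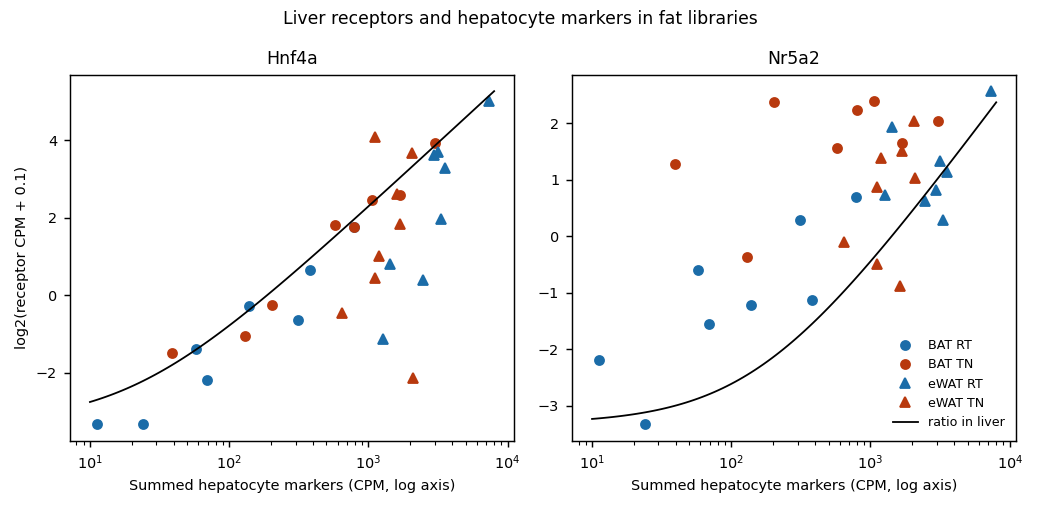
Hnf4a and Nr5a2 in each of the 16 BAT (circles) and 16 eWAT (triangles) libraries, as log2(CPM + 0.1), against the summed CPM of 8 hepatocyte markers on a log axis, coloured by housing. The line is the level the liver libraries' ratio would give: Hnf4a points lie on or below it in most libraries, and BAT points of Nr5a2 lie above it in 15 of 16.

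Housing moved the receptors of BAT. With 36 receptors and 18032 genes tested, 12 receptors differed between TN and RT in WT mice, 7 higher and 5 lower at TN, or 33.33% of those tested. The background was of the same size, 32.5% of all genes (15.9% higher and 16.7% lower), so the receptors' share was near the background. In KO mice 4 receptors differed, 1 higher and 3 lower, against 15.2% of all genes (6.64% higher and 8.52% lower). Averaged over genotypes 15 differed, 8 higher and 7 lower, against 38.5% of all genes (19.5% higher and 19.0% lower). No receptor was called for an interaction of genotype and housing, where 0.0% of all genes were called and 5 receptors had an unadjusted p under 0.05; DESeq2 called 0 as well. Without WT RT replicate 12 and WT TN replicate 24, which stood apart in endothelial markers, the interaction called Esr1 (0.97), Nr2c1 (0.86), Nr2c2 (-0.59) and Rarg (-1.21), against 10.7% of all genes. Values below are CPM within BAT, in the order of WT RT replicates 12, 15, 17 and 18, WT TN replicates 24, 6, 7 and 1, KO RT replicates 10, 14, 19 and 9 and KO TN replicates 2, 3, 4 and 5.

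The mitochondrial regulator Esrra fell at TN. It was 142, 147, 144 and 142 CPM in the WT RT libraries and 90.2, 66.4, 69.5 and 88.9 in the WT TN libraries. All 4 RT libraries lay within 5 CPM of each other and far above the 4 TN libraries (log2 difference -0.87 ± 0.15 SE, adjusted p = 0.000405, edgeR quasi-likelihood test with Benjamini-Hochberg adjustment, as for all p-values of this kind below). In KO mice the values were 149, 146, 150.2 and 131 CPM at RT and 80.5, 139, 104 and 103 at TN. KO TN replicate 3 overlapped the RT libraries, and the difference did not pass the test (-0.43, adjusted p = 0.0648). Its sister gene Esrrg and the low Esrrb passed no test between groups of BAT.

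Rxrb and Nr1h3 fell at TN in both genotypes. Rxrb, a retinoid X receptor, was 52.5, 51.0, 49.7 and 56.1 CPM in WT RT and 29.5, 38.9, 35.9 and 40.4 in WT TN, a fall without overlap (-0.53 ± 0.12, adjusted p = 0.00211). In KO mice Rxrb was 60.7, 51.3, 60.7 and 54.5 CPM at RT and 42.8, 46.8, 43.0 and 40.6 at TN, again without overlap (-0.39 ± 0.12, adjusted p = 0.0286). Rxra and Rxrg passed no test between housings. The liver X receptor Nr1h3, an oxysterol sensor, was 53.4, 84.1, 79.2 and 64.0 CPM in WT RT and 63.3, 40.0, 47.5 and 48.7 in WT TN. The groups overlapped through RT replicate 12 and TN replicate 24 (-0.49 ± 0.16, adjusted p = 0.0216). KO libraries had 70.8, 67.9, 65.8 and 64.5 CPM of Nr1h3 at RT and 39.6, 47.8, 42.3 and 51.2 at TN, with a clear gap between them (-0.57 ± 0.16, adjusted p = 0.0178). The related Nr1h2, the more widely expressed liver X receptor, was called only over both genotypes (-0.27 ± 0.08, adjusted p = 0.0167). It was 46.9, 49.3, 50.5 and 41.9 CPM in WT RT, 35.2, 38.7, 42.2 and 39.3 in WT TN, 57.3, 42.9, 53.0 and 59.3 in KO RT and 46.0, 43.4, 43.7 and 45.3 in KO TN. Each genotype on its own overlapped by 1 library or more.

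Pparg, the adipocyte receptor, was 258, 288, 363 and 296 CPM in WT RT and 217, 213, 179.6 and 222 in WT TN. The groups did not overlap, with RT replicate 17 the highest (-0.54 ± 0.17, adjusted p = 0.0244). In KO mice Pparg was 244, 263, 220.3 and 179 CPM at RT and 193, 281, 183 and 171 at TN, with wide overlap (-0.13, adjusted p = 0.697). Ppara and Ppard passed no test. The WT call of Pparg was lost without RT replicate 17 (adjusted p = 0.0936) or TN replicate 1, 6 or 7 (0.0515, 0.0625 and 0.0983) and without the muscle-rich libraries (0.0768). That of Nr1h3 was lost without RT replicate 15 or 17 (0.0863 and 0.0716), without TN replicate 1, 6 or 7 (0.0708, 0.111 and 0.0788) and in a fit of only the 8 libraries compared (0.0783).

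The orphan receptors Nr2f6 and Nr6a1 also fell. Nr2f6, a repressor of the COUP-TF family, was 49.8, 49.8, 50.4 and 64.1 CPM in WT RT and 38.6, 31.4, 36.5 and 31.3 in WT TN, without overlap (-0.64 ± 0.14, adjusted p = 0.00274). Its KO values were 59.4, 51.7, 58.8 and 49.0 CPM at RT and 32.9, 52.8, 40.3 and 42.0 at TN, with TN replicate 3 inside the RT range (-0.38, adjusted p = 0.0846). Nr6a1, the germ cell nuclear factor, was 5.45, 6.94, 8.09 and 8.42 CPM in KO RT and 4.28, 3.78, 4.18 and 3.25 in KO TN, a fall without overlap (-0.90 ± 0.27, adjusted p = 0.0276). WT libraries held 7.59, 6.30, 5.88 and 2.87 CPM of Nr6a1 at RT and 4.32, 5.18, 4.16 and 6.31 at TN, which overlapped (-0.18, adjusted p = 0.621). In KO mice the calls of Nr1h3, Rxrb and Nr6a1 were lost without the muscle-rich libraries (adjusted p = 0.159, 0.185 and 0.211) and in leave-one-out fits. Those fits were KO RT replicate 10 and KO TN replicates 2 and 4 for Nr1h3, these and KO RT replicate 19 and KO TN replicate 5 for Rxrb, and KO RT replicates 14, 19 and 9 and KO TN replicates 3, 4 and 5 for Nr6a1 (highest 0.0821, 0.0959 and 0.0796). With no filter on low counts the adjusted p was 0.150 for Rxrb and 0.0556 for Nr6a1.

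The chicken ovalbumin upstream promoter factors Nr2f1 and Nr2f2, repressors known from vessel and mesenchymal development, were higher at TN. Nr2f2 was 10.3, 13.0, 11.7 and 10.0 CPM in WT RT and 13.3, 18.8, 20.6 and 27.6 in WT TN. The lowest TN library, replicate 24, still exceeded every RT library (0.83 ± 0.23, adjusted p = 0.00895). In KO mice Nr2f2 was 9.30, 11.8, 14.0 and 14.2 CPM at RT and 25.4, 13.6, 23.1 and 16.7 at TN, with overlap through TN replicate 3 (0.67, adjusted p = 0.0510). Nr2f1 was 2.27, 1.64, 0.960 and 0.521 CPM in WT RT and 1.35, 4.26, 3.88 and 5.21 in WT TN. Replicate 24 was again the low TN library and lay inside the RT range (1.43 ± 0.48, adjusted p = 0.0290). KO values of Nr2f1 were 1.36, 1.14, 1.79 and 3.74 CPM at RT and 3.38, 3.83, 3.76 and 2.67 at TN, which overlapped through RT replicate 9 (0.76, adjusted p = 0.323). The WT call of Nr2f1 was lost in a fit of only the 8 libraries (0.0518) and without RT replicate 17 or 18 or TN replicate 1, 6 or 7 (0.0553 to 0.0855).

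The retinoic acid receptor Rarg was 14.0, 6.97, 8.92 and 8.45 CPM in WT RT and 8.57, 24.8, 24.5 and 24.3 in WT TN. Of the TN libraries 3 sat together above all RT libraries, and replicate 24 sat among the RT values (1.10 ± 0.31, adjusted p = 0.0116). KO libraries were at 18.7, 16.4, 16.0 and 23.0 CPM at RT and 34.7, 18.2, 25.6 and 18.6 at TN (0.39, adjusted p = 0.456). Rara and Rarb, the other retinoic acid receptors, passed no test between housings. Thra, the thyroid hormone receptor of fat, was 111, 70.0, 72.7 and 76.5 CPM in WT RT and 99.9, 111, 109 and 125 in WT TN, where RT replicate 12 lay among the TN values (0.43 ± 0.16, adjusted p = 0.0495). Its KO values were 107, 80.9, 81.3 and 105 CPM at RT and 117, 144, 126 and 104 at TN (0.40, adjusted p = 0.112). The WT call of Thra was lost in 9 alternatives, with adjusted p up to 0.148 without RT replicate 15. The others were without RT replicates 17 and 18 and TN replicates 1, 6 and 7, the fit of the 8 libraries, no filter on low counts, and the muscle-rich libraries left out. In GENCODE M21, 5.7% of the exon bases of Thra overlap a gene on the opposite strand.

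Esr1, the estrogen receptor, was 11.9, 16.7, 14.7 and 12.6 CPM in KO RT and 27.0, 27.2, 20.9 and 31.1 in KO TN. Every TN library exceeded every RT library (0.93 ± 0.18, adjusted p = 0.00173), and this call held in all alternatives run. WT libraries were at 17.9, 14.7, 23.0 and 14.1 CPM at RT and 18.4, 14.3, 18.6 and 17.2 at TN, fully overlapping (-0.02, adjusted p = 0.933). The difference between these 2 housing effects on Esr1 was 0.95 ± 0.25 and did not pass the interaction test (adjusted p = 0.443, unadjusted 0.00124). It passed once WT RT replicate 12 and WT TN replicate 24 were left out (0.97, adjusted p = 0.0303), an alternative chosen after seeing the data. The steroid receptors Nr3c1 and Nr3c2 passed no test in BAT.

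The immediate-early receptors Nr4a1 and Nr4a3 were higher at TN in WT mice, with wide spreads. Nr4a1 was 7.89, 6.46, 7.84 and 16.1 CPM in WT RT and 44.9, 36.1, 85.3 and 118 in WT TN. The groups were far apart although each varied more than 2-fold within itself (2.90 ± 0.95, adjusted p = 0.0336). In KO mice Nr4a1 was 19.1, 20.2, 4.54 and 146 CPM at RT and 195, 57.0, 128 and 34.5 at TN. KO RT replicate 9 exceeded 3 of the TN libraries (1.13, adjusted p = 0.472). Nr4a3 was 0.610, 0.134, 0.160 and 0.521 CPM in WT RT and 2.97, 0.270, 1.96 and 2.96 in WT TN, with TN replicate 6 inside the RT range (2.51 ± 0.71, adjusted p = 0.0110). KO libraries held 1.63, 0.954, 0.663 and 0.917 CPM of Nr4a3 at RT and 1.92, 0.606, 3.57 and 2.09 at TN (0.97, adjusted p = 0.378). Nr4a2, whose start window holds as many TGACG cores as the other members, averaged 7.59 CPM in WT RT and 6.89 in WT TN and passed no test (-0.14, adjusted p = 0.765). The WT call of Nr4a1 was lost with no filter on low counts (0.0529), without RT replicate 12, 15 or 17 or TN replicate 1 or 7 (0.0658 to 0.0869), and without RT replicate 12 and TN replicate 24 together (0.0698).

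Nr5a2, the liver receptor homologue, had the highest log2 difference of all receptors in WT BAT, from a low base. It was 0.339, 0.469, 0.320 and 0 CPM in WT RT and 0.630, 2.16, 3.93 and 4.49 in WT TN, without overlap (3.25 ± 0.80, adjusted p = 0.00472). KO libraries were at 1.26, 0.587, 0.133 and 1.77 CPM at RT and 3.43, 2.01, 4.24 and 2.67 at TN. They did not overlap either, but the difference did not pass the test (1.72 ± 0.73, adjusted p = 0.129). Over both genotypes the log2 difference was 2.48 ± 0.54 (adjusted p = 0.00143) and held in all alternatives run. The summed hepatocyte markers were also higher at TN, 130.2 to 1060 CPM in WT TN against 24.0 to 381 in WT RT, although none of the 8 passed the test. As given above, Nr5a2 exceeded the level that these markers would carry in 15 of 16 BAT libraries. The part of liver RNA in the Nr5a2 difference was not tested.

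**Figure D3:**
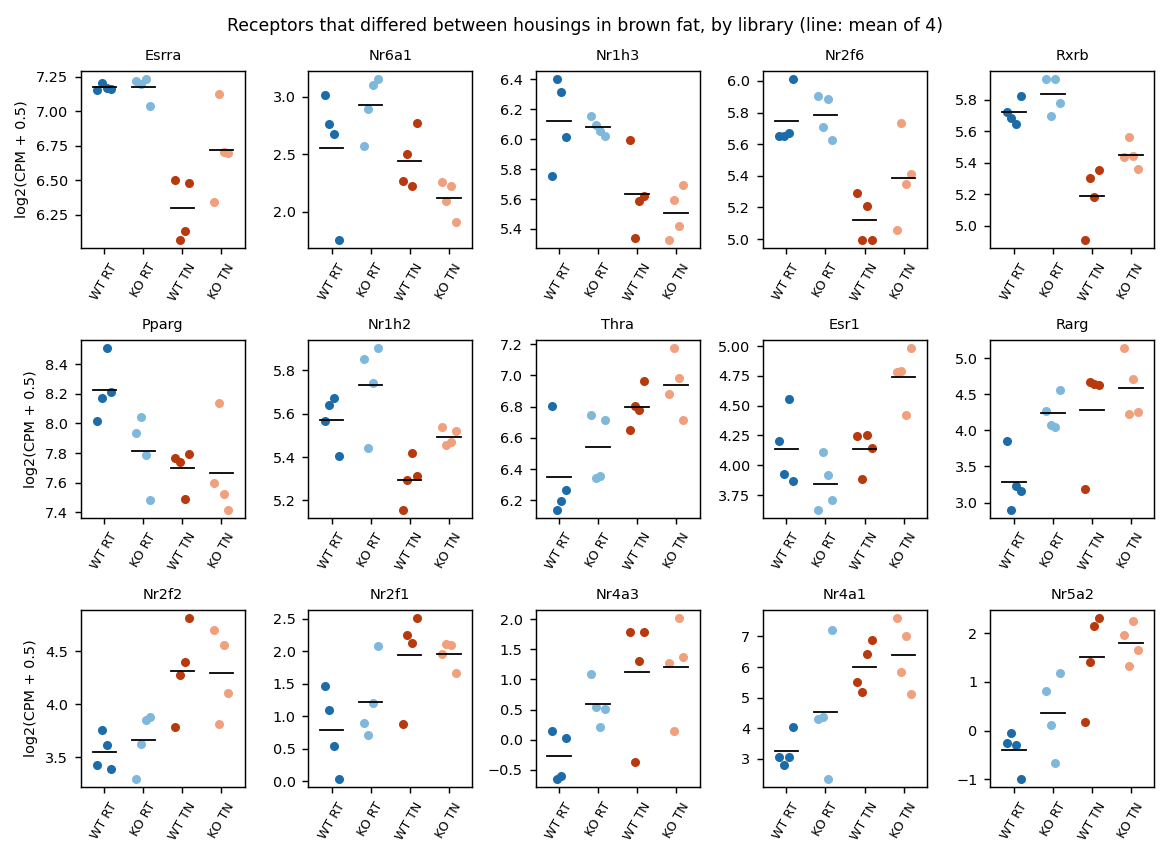
The 15 receptors that differed between housings in BAT over both genotypes, as log2(CPM + 0.5) in each library, with the mean of each group of 4 as a line; blue points are RT and red points TN, dark WT and light KO. In WT, Esrra, Rxrb, Nr2f6 and Pparg separate downwards at TN and Nr2f2, Nr4a1 and Nr5a2 upwards, without overlap.

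Over both genotypes the calls were those of WT and KO together with Nr1h2, and their log2 differences ran from -0.65 ± 0.11 for Esrra to 2.48 ± 0.54 for Nr5a2. Those of Nr1h3 (-0.53), Nr2f6 (-0.51), Rxrb (-0.46), Nr2f2 (0.75), Rarg (0.75), Nr2f1 (1.10), Nr4a3 (1.74) and Esr1 (0.45) held in all alternatives run. Those of Pparg, Nr6a1, Thra, Nr4a1 and Nr1h2 did not, with adjusted p of 0.264, 0.201, 0.0534, 0.0899 and 0.0579 without the 5 muscle-rich libraries. Leaving out 1 library also ended the calls of Pparg in 12 fits, Nr6a1 in 8 and Nr4a1 in 5. Thermoneutral BAT also differed in its cell markers, all as summed CPM. The counts of markers stand beside 15.9% of all genes higher and 16.7% lower at TN in WT, and 6.64% and 8.52% in KO. Brown adipocyte markers were 7883 to 13070 in WT RT and 3690 to 3791 in WT TN, except 7284 in replicate 24, and 4 of 7 fell. Macrophage markers were 19.9 to 47.5 in WT RT and 82.1 to 166 in WT TN, and 6 of 7 rose. Fibroblast and progenitor markers were 127 to 224 and 389.7 to 618, and 3 of 5 rose. Endothelial markers were 133 to 454 in WT RT and 261 to 872 in WT TN, and 3 of 5 rose. KO BAT moved alike in the first 3 lists (7691 to 11960 and 3239 to 5898 CPM of brown adipocyte markers, 21.4 to 28.2 and 70.2 to 90.6 of macrophage markers, 124 to 180.0 and 339.7 to 617 of fibroblast markers), while none of 5 endothelial markers passed the test (409 to 838 and 651 to 1125). The only marker of these lists at 0 in any BAT library was Elovl3, in the brown adipocyte list. The part of these cell markers in the receptor differences was not tested, and in bulk tissue fewer cells of a type and less RNA per cell cannot be told apart.

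Known targets of the receptors gave a mixed picture in WT BAT at TN, described by counts beside a median of 0.11 over all genes, of which 15.9% rose and 16.7% fell (6.64% and 8.52% in KO). Of 10 estrogen-related receptor targets, genes of respiration, 9 fell and none rose (median log2 difference -1.01), among them Cycs, the electron carrier cytochrome c (-1.28 ± 0.20, adjusted p = 0.000150, edgeR), Sdhb, a subunit of succinate dehydrogenase (-1.24), and Cox5a, a subunit of cytochrome c oxidase (-1.12). In KO BAT 6 of 10 fell (median -0.59). Without the 5 muscle-rich libraries 9 fell in WT and none in KO, where 27.3% and 6.88% of all genes were then called. Of 7 thyroid hormone receptor targets 4 fell in each genotype (medians -1.66 and -1.01). In WT they included Me1, malic enzyme (-3.00 ± 0.29), Thrsp, a regulator of lipogenesis (-2.38), and Ucp1, the uncoupling protein of brown fat (-1.86). Of 9 glucocorticoid receptor targets 5 rose in WT and 3 in KO (medians 0.92 and 0.60), in WT among them Zbtb16 (1.89), Fkbp5 (1.77) and the clock gene Per1 (1.22), although Nr3c1 itself passed no test. Without WT RT replicate 12 and WT TN replicate 24, 3 rose and 1 fell in WT, with Fkbp5 at an adjusted p of 0.0588, where 39.7% of all genes were called. Without the muscle-rich libraries 4 rose in WT and 1 in KO.

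Lists of lipid receptors went both ways in WT BAT, where 15.9% of all genes rose and 16.7% fell. Among 15 PPAR-alpha targets 2 rose and 5 fell (median 0.09): the lipoprotein lipase inhibitor Angptl4 (1.42) and the pantetheinase Vnn1 (1.46) rose, and the beta-oxidation gene Hadha (-1.77), Fgf21 (-2.42) and Acot1 (-2.46) were among those that fell. Fgf21 (0.406 CPM at TN and 2.19 at RT) and Acot1 (1.08 and 5.90 CPM) overlapped between the groups, and each call was lost without any 1 of 5 of the 8 libraries (adjusted p up to 0.202 and 0.182). Among 14 PPAR-gamma targets the glycerol channel Aqp7 rose (0.70) and 4 fell, including Gpd1 (-1.65), the lipid droplet gene Cidec (-1.25) and the glucose transporter Slc2a4 (-1.02). Of 11 liver X receptor targets Apoe (1.59) and the sterol exporter Abcg1 (1.18) rose, while 4 fell, among them the desaturase Scd1 (-1.35), Lpcat3 (-0.73) and Srebf1 (-0.55), whose call was lost without any 1 of 5 libraries (up to 0.147) and without the muscle-rich ones (0.167). Apoe and Abcg1 are also macrophage genes, and the macrophage markers given above rose in the same libraries, whose part in these values was not tested. Of 9 pregnane X and constitutive androstane receptor targets 1 rose, the transporter Abcb1a (1.61), and of the 8 farnesoid X receptor, 8 HNF4-alpha and 3 retinoic acid receptor targets tested none passed. Of 20 coregulators 5 rose and 1 fell: Nrip1 (1.31), a corepressor of energy genes, Ncoa3 (1.15) and Pprc1 (0.93) rose and Lpin1 fell (-0.93), the last not without WT RT replicate 18 or WT TN replicate 6 or 7 (0.0503 to 0.0637). Of 11 ligand-handling enzymes Hsd11b1, which regenerates active glucocorticoid, fell from 102 to 35.8 CPM (-1.51 ± 0.19, adjusted p = 2.73e-05), and 1 other rose.

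Whether the housing effect differed between tissues was tested in the fit of all 48 libraries, over both genotypes. The effect differed between BAT and liver for 7 receptors, against 16.8% of all genes, and between BAT and eWAT for 7 receptors, against 16.5% of all genes. No receptor differed between eWAT and liver by edgeR or DESeq2, where 0.0822% of all genes were called and 6 receptors had an unadjusted p under 0.05. The comparisons with liver and with eWAT share the BAT libraries, so their values are given side by side and not as independent results. For Nr5a2 the BAT effect exceeded that of liver by a log2 of 2.71 ± 0.56 (adjusted p = 0.000454) and that of eWAT by 2.92 ± 0.58 (adjusted p = 0.000428). The differences for Nr2f2 were 0.94 (adjusted p = 0.000920) and 0.89 (adjusted p = 0.00204), for Nr2f1 1.48 and 1.55, for Rxrb -0.35 and -0.44 and for Nr1h3 -0.45 and -0.39. For Esrra it was -0.68 against liver (adjusted p = 0.00167) and for Thra 0.55 (adjusted p = 0.0244), while Rarg (0.69, adjusted p = 0.0384) and Esr1 (0.75, adjusted p = 0.0482) differed from eWAT. Without the 5 muscle-rich BAT libraries the differences from liver of Rxrb and Thra were lost (0.0869 and 0.0950; Rxrb also with no filter on low counts, 0.0842), as were those from eWAT of Nr1h3, Rarg and Esr1 (0.0663, 0.0586 and 0.0725). In leave-one-out fits Nr1h3 against eWAT was lost without BAT KO TN replicate 2, BAT WT RT replicate 15 or 17, BAT WT TN replicate 6, eWAT KO RT replicate 16 or eWAT WT TN replicate 6 or 7 (0.0521 to 0.0611). Rarg was lost without any 1 of 18 of the 32 libraries (0.0517 to 0.0910) and Esr1 without any 1 of 23 (0.0508 to 0.0837), and against liver Nr2f1 without liver WT RT replicate 12 (0.0520) and Thra without liver KO RT replicate 10 (0.0503). In the fit with the replicate number as a block, described below, Nr1h3 and Nr2f1 against liver were lost as well.

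**Figure D4:**
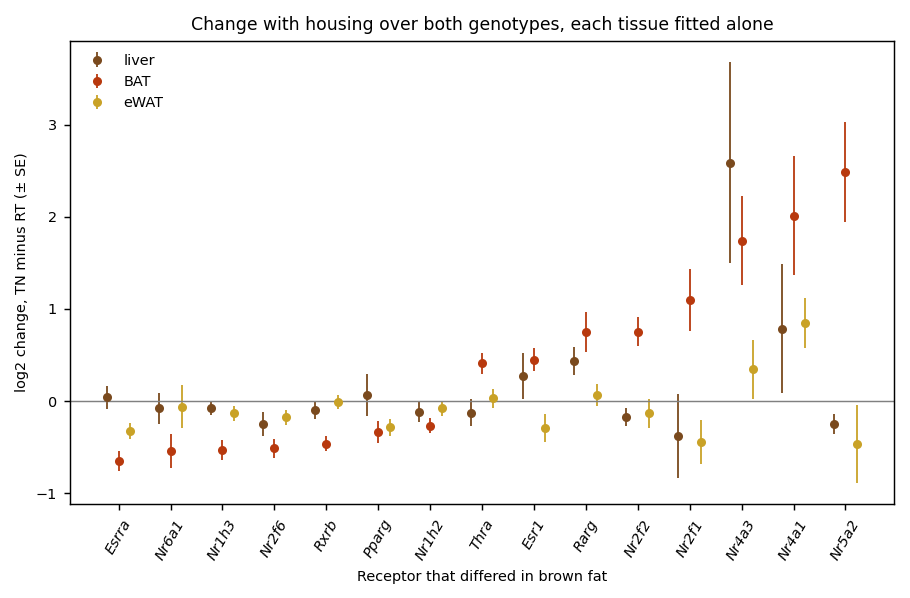
Log2 difference of TN minus RT over both genotypes, each tissue fitted alone, for the 15 receptors that differed in BAT; points are estimates and bars are ± 1 SE. BAT lies apart from liver and eWAT most clearly for Nr5a2 and Nr2f2, while Nr4a3 in liver has wide error.

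Genotype moved receptors in eWAT, and every receptor it moved was higher in KO mice. Over both housings 6 of 35 receptors tested, 17.14%, were higher in KO and none lower, where 8.46% of all 18933 genes were called in either direction and 2.74% were higher in KO. The median receptor difference was 0.16 on the log2 scale, against 0.01 for all genes. At RT alone 2 receptors were higher, against 4.34% of all genes called and 1.2% higher, and at TN alone 1, against 0.586% called and 0.174% higher. The interaction called none of the receptors and 0.0% of all genes, with 3 receptors at an unadjusted p under 0.05 and none called by DESeq2. Values are CPM within eWAT, in the order of WT RT replicates 12, 13, 15 and 18, KO RT replicates 10, 16, 19 and 9, WT TN replicates 23, 6, 7 and 8 and KO TN replicates 21, 3, 4 and 5.

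The glucocorticoid receptor Nr3c1 was the only receptor called in each housing. At RT it was 172, 168, 189 and 151 CPM in WT and 234, 267, 251 and 252 in KO (0.56 ± 0.09, adjusted p = 0.00358). At TN it was 163, 158, 159.7 and 169 CPM in WT and 234, 214, 191 and 228 in KO (0.42 ± 0.09, adjusted p = 0.0465). All 8 KO libraries exceeded all 8 WT libraries, and over both housings the difference was 0.49 ± 0.07 (adjusted p = 0.000404). The RT and combined calls held in all alternatives run. The TN call of Nr3c1 did not, with adjusted p of 0.0623 with no filter on low counts, 0.0713 in a fit of only the 8 libraries, and 0.0630 to 0.197 without KO replicate 21, 3 or 5 or WT replicate 23, 6 or 7.

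The nuclear receptors of energy metabolism followed. Thra was 98.0, 84.9, 78.1 and 67.8 CPM in WT RT and 117, 99.0, 131 and 126 in KO RT, and 100.5, 69.2, 76.5 and 111 in WT TN and 123, 107.5, 102 and 122 in KO TN. KO libraries exceeded WT libraries at RT without overlap, and at TN WT replicate 8 lay within the KO range (0.44 ± 0.10 over both housings, adjusted p = 0.0134). Esrra was 42.0, 38.6, 31.5 and 32.0 CPM in WT RT and 42.7, 52.4, 47.3 and 52.5 in KO RT, a narrow gap (0.44 ± 0.12, adjusted p = 0.0460). At TN Esrra was 34.1, 32.2, 31.3 and 31.2 CPM in WT and 34.9, 32.0, 31.3 and 41.9 in KO, which overlapped (0.12, adjusted p = 0.715). Over both housings the difference was 0.28 ± 0.08 (adjusted p = 0.0481). Esrra was also the only receptor called between housings in eWAT, lower at TN than at RT in KO mice without overlap (-0.48 ± 0.12, adjusted p = 0.0493), where 1.74% of all genes were called and 0.718% were lower. These 3 calls of Esrra were lost in 8, 11 and 9 alternatives, including no filter on low counts (0.0584, 0.0666 and 0.0623). At RT they included leaving out KO replicate 16, 19 or 9, WT replicate 13 or 15, or WT replicate 18, the library with epididymis RNA (0.0518 to 0.121).

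The remaining receptors called over both housings were Esr1, Nr2f1 and Nr2f2. Esr1 was 31.5, 29.6, 37.7 and 20.8 CPM in WT RT, 45.6, 51.9, 37.5 and 44.8 in KO RT, 17.9, 20.2, 27.0 and 23.9 in WT TN and 49.3, 37.3, 24.2 and 50.6 in KO TN. One KO library in each housing reached into the WT range (0.72 ± 0.15, adjusted p = 0.00641). Nr2f1 was 6.49, 4.44, 6.34 and 3.46 CPM in WT RT, 10.2, 11.8, 7.75 and 10.7 in KO RT, 5.88, 4.11, 4.00 and 1.51 in WT TN and 6.95, 5.29, 6.02 and 11.0 in KO TN. The groups were apart at RT and overlapped at TN (0.94 ± 0.24, adjusted p = 0.0186). Nr2f2 was 29.6, 23.5, 21.7 and 17.6 CPM in WT RT, 24.8, 39.4, 38.7 and 35.6 in KO RT, 29.2, 16.2, 22.8 and 15.8 in WT TN and 42.3, 25.6, 33.4 and 26.2 in KO TN, with overlap in both housings (0.59 ± 0.16, adjusted p = 0.0258). The call of Nr2f2 was lost without KO TN replicate 21, WT RT replicate 18 or WT TN replicate 6 (adjusted p = 0.0502, 0.0511 and 0.0526).

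**Figure D5:**
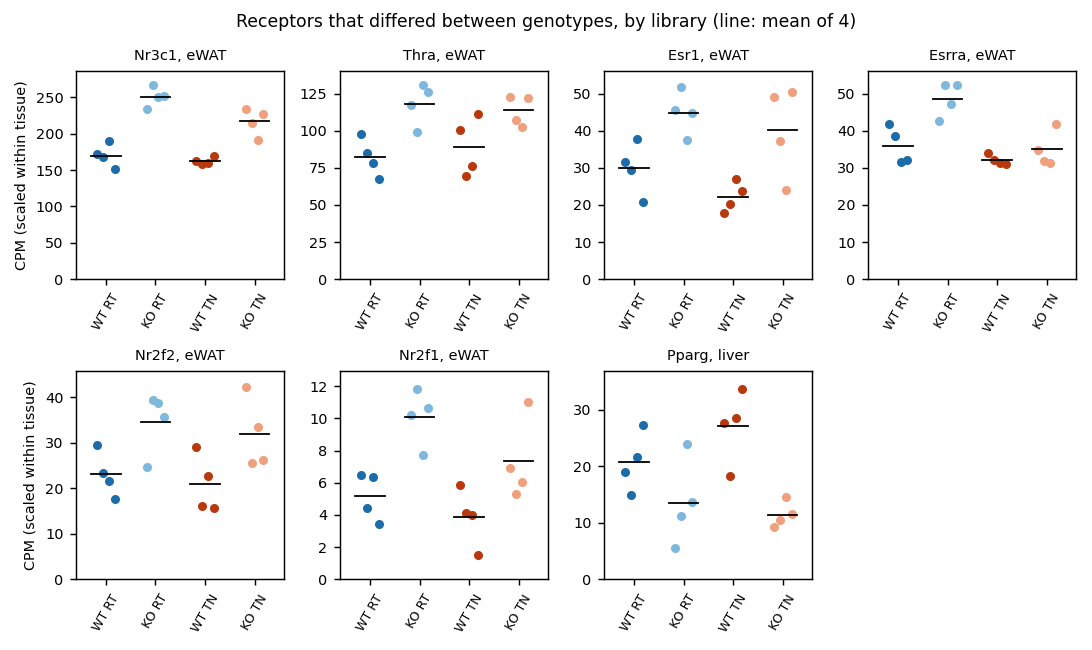
CPM of the 7 receptor and tissue pairs called between genotypes, in each library, with the mean of each group of 4 as a line; axes start at 0, blue points are RT and red points TN, dark WT and light KO. In eWAT all 8 KO libraries lie above all 8 WT libraries for Nr3c1, and in liver the 4 KO TN libraries lie below the 4 WT TN libraries for Pparg.

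Macrophage markers moved with genotype in eWAT. Their sum was 287 to 409 CPM in WT RT against 211 to 299.8 in KO RT and 413 to 679 in WT TN against 384 to 429 in KO TN, and 5 of 7 fell in KO over both housings. In that comparison 8.46% of all genes were called, 518 of 18933 higher in KO and 1083 lower. Fibroblast and progenitor markers overlapped (1072 to 1229 and 919 to 1249 CPM at RT, 1428 to 2267 and 1455 to 1692 at TN), with 1 of 5 lower. Of 7 adipocyte markers 2 were higher and 1 lower, and no macrophage, fibroblast or adipocyte marker was at 0 in any eWAT library. The part of these markers in the receptor differences was not tested.

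Receptor targets called between genotypes in eWAT over both housings numbered 3 or fewer in each list, where 8.46% of all genes were called and the median was 0.01. Of 14 PPAR-gamma targets 2 rose in KO, the adipsin gene Cfd (1.41 ± 0.29, adjusted p = 0.00859) and Slc2a4 (0.52). Of 11 liver X receptor targets 3 fell: the phospholipid transfer protein Pltp (-0.98 ± 0.15, adjusted p = 0.00126), Smpdl3a (-0.37) and Lpcat3 (-0.37). Of 7 thyroid hormone receptor targets Gpd2 (0.99) and Thrsp (0.83) rose. Of 9 glucocorticoid receptor targets only 1 passed the test, the metallothionein Mt2, which fell (-0.98 ± 0.23, adjusted p = 0.0171) while Nr3c1 rose. Of 9 estrogen-related receptor targets 2 rose over both housings, Fh1 (0.27) and Ndufs1 (0.24), and 4 at RT (median 0.36, beside 1.2% of all genes higher), among them Sdhb (0.61), Fh1 (0.48) and Mdh2 (0.43). Their coactivator Ppargc1a, which partners Esrra in mitochondrial gene control, rose over both housings (0.90 ± 0.22, adjusted p = 0.0141). In KO eWAT 5 of the 9 fell at TN (median -0.50, beside 0.718% of all genes lower), among them Cox5a (-0.60), Fh1 (-0.53) and Mdh2 (-0.53). None of the 15 PPAR-alpha, 8 farnesoid X receptor, 10 pregnane X and constitutive androstane receptor, 5 retinoic acid receptor or 8 HNF4-alpha targets passed between genotypes over both housings, nor did any of 14 ligand-handling enzymes. Several of these target calls were lost when 1 library was left out: over both housings Smpdl3a, Lpcat3, Thrsp and Ndufs1 (without any 1 of 5 to 14 of the 16 libraries, adjusted p up to 0.115), at RT Sdhb and Mdh2 (any 1 of 6 of the 8, up to 0.126), and between housings in KO Cox5a, Mdh2 and Fh1 (any 1 of 2 to 6 of the 8, up to 0.1345).

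In liver Pparg was the only receptor called between groups. At TN it was 27.7, 18.4, 28.6 and 33.8 CPM in WT (replicates 1, 24, 6 and 7) and 9.23, 10.5, 14.5 and 11.6 in KO (replicates 2, 22, 4 and 5). The genotypes did not overlap (-1.24 ± 0.32, adjusted p = 0.0476), and 3.18% of all 17594 genes were called in this comparison, 1.85% lower in KO. At RT Pparg was 19.1, 15.0, 21.7 and 27.4 CPM in WT (replicates 11, 12, 15 and 18) and 5.61, 11.3, 23.9 and 13.6 in KO (replicates 10, 16, 19 and 9). There KO replicate 19 exceeded 3 WT libraries (-0.61, adjusted p = 0.552, with 0 receptors and 0.0853% of all genes called, 2 receptors at an unadjusted p under 0.05 and none called by DESeq2). Over both housings Pparg was lower in KO by a log2 difference of -0.93 ± 0.23 (adjusted p = 0.0270, with 5.19% of all genes called and 2.98% lower in KO).

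The TN call of Pparg in liver was near the threshold and was lost with RLE scaling (adjusted p = 0.0531), with no filter on low counts (0.0992), and without KO TN replicate 2, 22, 4 or 5 or WT TN replicate 1, 6 or 7 (0.0814 to 0.116); the combined call was lost with no filter (0.0605) and without KO RT replicate 16, KO TN replicate 2 or 22, WT RT replicate 15 or WT TN replicate 6 or 7 (0.0517 to 0.0624). Adipocyte markers in liver summed to 196.5 to 267 CPM in WT TN and 51.5 to 225 in KO TN, 84.7 to 164 in WT RT and 15.6 to 138 in KO RT. None of the 4 adipocyte markers tested passed at TN (median -0.84), and Adipoq, Plin1, Lep and Retn were each at 0 in at least 1 liver library. Their part in the Pparg difference was not tested.

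Hnf4a, Esrrg, Thrb and Ppara did not pass the test in liver at TN. Of 7 receptors with an unadjusted p under 0.05 by edgeR in this comparison, 1 was higher in KO. The liver X receptor Nr1h3, also not called, was higher in KO TN without overlap, at 89.8 to 104.8 CPM against 78.8 to 84.7 in WT TN. The 4 receptors named first were lower in KO. Hnf4a was 535, 432, 447 and 445 CPM in WT TN and 291, 363, 267 and 353 in KO TN, without overlap (-0.55 ± 0.16, adjusted p = 0.0629). DESeq2, which called 6.31% of all genes in this comparison, gave it an adjusted p of 0.0237, and a fit of only the 8 libraries 0.0431. Esrrg was 8.53, 8.65, 4.22 and 8.25 CPM in WT TN and 4.07, 3.36, 3.16 and 3.56 in KO TN (-1.07 ± 0.33, adjusted p = 0.0716, and 0.0296 by DESeq2). Thrb was 54.5, 56.2, 55.2 and 46.7 CPM in WT TN and 35.1, 44.5, 39.4 and 43.6 in KO TN (-0.39 ± 0.13, adjusted p = 0.0894). Ppara, the fatty acid sensor of liver, was 233, 206, 214 and 190.2 CPM in WT TN and 109, 165, 138 and 189.5 in KO TN. The gap between the lowest WT and the highest KO library was under 1 CPM (-0.49 ± 0.19, adjusted p = 0.170), and over both housings the adjusted p of Ppara was 0.0568 by edgeR and 0.0223 by DESeq2.

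Targets of these receptors in KO liver at TN mostly fell where they passed the test, beside a median of 0.05 and 1.85% lower over all genes. Of 16 PPAR-alpha targets 5 fell and none rose (median -0.58), among them the peroxisomal oxidation genes Ehhadh (-0.81 ± 0.15, adjusted p = 0.00626) and Acaa1b (-0.73). Of 12 PPAR-gamma targets 2 fell, the fatty acid transporter Cd36 (-1.10 ± 0.23, adjusted p = 0.0160) and Gpd1 (-0.62). Of 11 liver X receptor targets Scd1 (-1.04) and Abca1 (-0.68) fell, and of 9 farnesoid X receptor targets the bile acid enzyme Cyp8b1 (-1.28) and the phospholipid transporter Abcb4 (-0.62). Single genes fell in the thyroid hormone receptor (Gpd2, -0.96, of 6), pregnane X and constitutive androstane receptor (Ugt1a1, -0.82, of 12), estrogen-related receptor (Ndufs1, -0.42, of 9), HNF4-alpha (Mttp, -0.62, of 8) and ligand-enzyme (Aldh1a1, -0.71, of 10) lists. None of 9 glucocorticoid receptor targets and none of 20 coregulators passed. The calls of Gpd1, Abca1, Cyp8b1, Abcb4, Ndufs1 and Aldh1a1 were each lost without any 1 of 6 to 8 of the 8 TN libraries (adjusted p up to 0.151). Cd36 was lost without WT TN replicate 6 (0.0544), and Acaa1b without WT TN replicate 6 or 7 (0.0577 and 0.0537).

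Other comparisons called no receptor. Between genotypes in BAT none was called at RT, at TN or over both housings, where 0.0887%, 0.0% and 0.0% of all genes were called. Unadjusted p under 0.05 were reached there by 10, 7 and 7 receptors, and DESeq2 called 2, 0 and 2, against 5.44%, 0.111% and 2.21% of all genes. At RT these 2 were Rarg (log2 difference 0.95, adjusted p = 0.0389 by DESeq2) and Vdr (2.04, 0.0203), and over both housings Vdr (1.45, 0.0321) and Esrrg (-0.50, 0.0493). Vdr was 4.29, 1.54, 0.929 and 4.25 CPM in KO RT and 1.42, 0.301, 0.800 and 0.104 in WT RT. Without WT RT replicate 12 and WT TN replicate 24 edgeR called 5 receptors at RT, against 15.9% of all genes, among them Rarg (1.19, adjusted p = 0.00174) and Vdr (2.75, adjusted p = 0.0109), an alternative chosen after seeing the data. Summed endothelial markers were 409 to 838 CPM in KO RT and 133 to 166 in WT RT, apart from 454 in replicate 12. Their part in these values was not tested.

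Housing called no receptor in liver in WT or KO mice or over both genotypes, where 0.0227%, 0.114% and 0.279% of all genes were called, and 6, 3 and 7 receptors had an unadjusted p under 0.05. DESeq2 called none in these either. The liver interaction called none by edgeR or DESeq2, with 4 receptors at an unadjusted p under 0.05 and 0.0% of all genes called. In WT eWAT no receptor and 0.0% of all genes were called between housings, no receptor had an unadjusted p under 0.05 and DESeq2 called none. Over both genotypes in eWAT none of the receptors was called, against 2.22% of all genes, with 7 at an unadjusted p under 0.05 and 4 called by DESeq2, against 6.05% of all genes.

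In all, 16 of the 38 receptors were called in at least 1 comparison within a tissue and 22 in none. Housing in BAT over both genotypes called 15 of the 16, or 41.67% of those tested, against 38.5% of all genes. The share of all genes called in at least 1 comparison is not given here. The 22 receptors called in none were Ppara, Ppard, Rxra, Rxrg, Rara, Rarb, Thrb, Esrrb, Esrrg, Pgr, Vdr, Hnf4a, Hnf4g, Nr1d2, Nr1h4, Nr1i2, Nr1i3, Nr2c1, Nr2c2, Nr3c2, Nr4a2 and Rora. They include receptors at high levels, such as the clock receptor Nr1d2 with 123 CPM in liver, 84.3 in BAT and 50.3 in eWAT and the related Rora with 75.3, 21.4 and 43.6 CPM. A missed threshold does not show that their levels were alike. Replicates of a group varied by a median over receptors of 16.6% (coefficient of variation) in liver, 19.2% in BAT and 19.1% in eWAT, and Nr4a1 varied by 91.1% in liver and 61.7% in BAT.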

How the data were processed

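Total RNA of 48 tissue samples was sequenced as paired reads, and the authors deposited 1 table of whole read counts per gene for each sample. Per the submitters' processing notes the tools were fastp, STAR 2.6.1d and featureCounts 1.5.0-p3, and the genome GRCm38 (mm10). The annotation release and the use of strand are not given in the sources used here. Gene names came from a table that named 91.8% of 56748 identifiers, and exon lengths from GENCODE M21, which is not known to be the authors' annotation.

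Each tissue's 16 libraries were fitted alone, with 1 mean per group, by edgeR 4.0.16 (limma 3.58.1, R 4.3.3): robust quasi-likelihood tests after TMM scaling and removal of low genes by filterByExpr (minimum count 10), and Benjamini-Hochberg adjustment over all genes tested. Tissues, and the housing effect between tissues, were compared in 1 fit of all 48 libraries. CPM values are on TMM-scaled library sizes within a tissue, or over all libraries for levels between tissues, while marker sums use plain totals. Alternatives were DESeq2 1.42.0, RLE scaling, no filter, at least 1 CPM in 4 libraries, only the libraries compared, each library left out, and the replicate number as a block. In addition, 2 sets of BAT libraries were left out as alternatives chosen after seeing the data. The leave-one-out fits of 48 libraries reused the gene filter and the dispersion trend of the complete fit. P-values measure the spread between these samples, and a depth of 23.7 to 43.7 megacounts limits precision at low levels, covering counting error only.

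Receptors called in a comparison are given per library, those called in none by name, the top 3 per kb in each tissue by level, and from each target list at most 3 called genes per direction with the largest change and a mean of at least 1 CPM. The receptors and lists were chosen with earlier results of these data known. On simulated data from the real means and the dispersion trend, edgeR recovered 63% of 4-fold and 38% of 2-fold changes between genotypes in liver at RT (16979 genes), with 3 false calls. In BAT at RT it recovered 62% and 27%, and in eWAT at RT 71% and 33%, with 4 false calls in each. Between liver and BAT the shares were 81% and 54%, with 11 false calls. Some members of the target lists are not reported here.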

Additional observations from a re-analysis of the deposited data

Results flagged for a closer look

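Single libraries stood apart in 5 of the 88 sets of 4 replicates checked by Dixon's gap test, which chance alone would give in about 1 in 20. All 5 were in BAT, the tissue where most receptors differed. How many of the 88 sets were from BAT is not given here, and whether the tissues differ in this was not tested. In WT RT, Thra was 111.3 CPM in replicate 12 against 70.0 to 76.5 in the others, Nr2f6 was 64.1 CPM in replicate 18 against 49.8 to 50.4, and Nr4a1 was 16.1 CPM in replicate 18 against 6.46 to 7.89. Rarg was 8.57 CPM in WT TN replicate 24 against 24.3 to 24.8, and Nr4a1 was 146 CPM in KO RT replicate 9 against 4.54 to 20.2. WT RT replicate 12 and WT TN replicate 24 are also the libraries apart in endothelial markers (454 and 261 CPM).

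The housing effect over both genotypes differed between tissues, by edgeR's test of the difference, for 9 receptors. Each comparison below called 18.92% of the receptors tested. The share of all genes was 16.8% in BAT minus liver and 16.5% in BAT minus eWAT, so the receptors were near the background. BAT minus liver gave log2 differences of 2.71 for Nr5a2, 1.48 for Nr2f1, 0.94 for Nr2f2, 0.55 for Thra, -0.35 for Rxrb, -0.45 for Nr1h3 and -0.68 for Esrra. BAT minus eWAT gave 2.92 for Nr5a2, 1.55 for Nr2f1, 0.89 for Nr2f2, 0.75 for Esr1, 0.69 for Rarg, -0.39 for Nr1h3 and -0.44 for Rxrb.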

How the results depend on the processing

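Of the 43 receptor calls within tissues, 23 held in every alternative run, and no named result changed direction. Receptor counts that moved by more than 1.5 times were these. DESeq2 called 3 in liver between genotypes at TN and 2 over both housings (each 1 by edgeR), against 6.31% and 8.14% of all genes. In BAT it called 2 between genotypes at RT and 2 over both housings (0 by edgeR), against 5.44% and 2.21%. In eWAT it called 6 between genotypes at RT (2 by edgeR) and 2 at TN (1 by edgeR), against 7.97% and 3.57%. Between housings in eWAT it called 4 in KO (1 by edgeR) and 4 over both genotypes (0 by edgeR), against 6.1% and 6.05%. RLE scaling gave 0 in liver between genotypes at TN, against 516 of 17594 genes. In eWAT it gave 4 between genotypes at RT and 1 between housings over both genotypes, against 816 and 424 of 18933 genes. A filter of 1 CPM in 4 libraries gave 5 and 1 in those eWAT comparisons, against 959 and 497 of 15292 genes. No filter gave 0 in liver between genotypes over both housings, against 828 of 28046 genes. It gave 0 in eWAT between genotypes at TN and between housings in KO, against 130 and 273 of 31312 genes. The 8 libraries compared, fitted alone, gave 3 in liver between genotypes at TN, against 654 of 16240 genes. Fitted alone in both of those eWAT comparisons, they gave 0, and no gene at all was called. Without the 5 muscle-rich BAT libraries 2 receptors were called between genotypes at RT, against 2.31% of all genes. Between housings in KO 1 was then called (4 with them), against 6.88%. For the housing effect of BAT minus eWAT 4 were called (7 with them), against 2505 of 23807 genes. Without the 2 BAT libraries apart in endothelial markers 5 were called between genotypes at RT, 2 over both housings and 4 for the interaction, against 15.9%, 3.02% and 10.7% of all genes. The cause of these moves was not tested.

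Leaving out 1 library at a time gave 0 to 1 in liver between genotypes at TN and 0 to 2 over both housings. In BAT it gave 0 to 3 between genotypes at RT and 0 to 1 over both housings, 7 to 15 between housings in WT (lowest without WT RT replicate 17, highest without WT TN replicate 24), 2 to 6 in KO and 12 to 16 over both genotypes. In eWAT it gave 1 to 3 between genotypes at RT, 0 to 2 at TN and 4 to 7 over both housings, and between housings 0 to 1 in KO and 0 to 2 over both genotypes. It gave 4 to 9 for the housing effect of BAT minus eWAT and 6 to 8 for BAT minus liver.

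Replicate numbers recur between tissues but not between groups of a tissue. Same-numbered libraries of different tissues had a median correlation of 0.021 over 35 pairs, 2 of them over 0.1. Differently numbered libraries had a median of -0.0067 over 157 pairs, 20 of them over 0.1. The numbers were therefore not taken to pair the libraries, although a low correlation does not show that they came from different mice. With the replicate number as a block, 32 receptors differed between liver and BAT, 33 between liver and eWAT and 26 between BAT and eWAT, and the housing effect differed for 5 in BAT minus liver, 7 in BAT minus eWAT and 0 in eWAT minus liver. The calls of Nr1h3 and Nr2f1 in BAT minus liver (0.0860 and 0.0592) and of Ppard in BAT against eWAT (0.0825) were among those not made with it. Depth limits Pgr, Hnf4g, Vdr in liver and Esrrb in eWAT, which were at 0 in most or many libraries.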
